A study of Mus musculus with 12 samples.

Results

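Gene expression in the cardiogenic region of mouse embryos was compared between embryonic day 9.5 (E9.5) and embryonic day 8 (E8), passing over E8.5. The comparison took the 3 libraries labelled E8 and the 3 labelled E9.5, 6 of the 12 libraries in the series. It was chosen with earlier results of these data known, and E8.5 was passed over so that its variable libraries did not enter. The remaining libraries, 3 at E8.5 and 3 at E14, did not enter the fit and are given only as levels. Each library was total RNA from the dissected heart-forming region, and the series title concerns the long non-coding RNA yylncT, DNMT3B and the mesodermal programme. The groups differ by stage as far as the labels say, which name no strain, genotype, treatment, litter or number of pooled embryos. No label says that the replicates came from separate litters, so p-values measure only how far these samples vary, and that variation may be technical.

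At the earlier stage the heart is a young tube that lies against the foregut endoderm and still grows by adding progenitors of the second heart field at its ends. At the later stage the tube has looped, its chambers and cushions take shape, blood with primitive red cells circulates through it, and mesothelial cells of the proepicardium begin to spread over its surface as epicardium. In bulk tissue, fewer cells of a type and less RNA per cell cannot be told apart, and this holds for every difference given here.

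Library totals ran from 101231012 to 122785173 counts at E8 and from 73056000 to 90620692 at E9.5, and small structural RNAs took 19.8% to 20.6% and 20.6% to 22.5% of them. Of the markers of heart muscle, Tnnt2, cardiac troponin T, was at 478, 624 and 602 CPM at E8 and 639, 638 and 572 CPM at E9.5. E9.5 replicate 1 stood apart from the other E9.5 libraries. On the first principal component of the 6 libraries, which held 62% of the variance, the E8 libraries lay at -58.2, -60.3 and -59.4 and the E9.5 libraries at 41.1, 63.9 and 72.9, with replicate 1 the least far from E8. Projected on the same axis, E8.5 lay at -28.3, -35.2 and -46.0 and E14 at 83.1, 75.4 and 79.0. Where a gene's call or a list's count changed without E9.5 replicate 1, the value without it is given, for a list where the count moved by at least 2 genes and over 1.5 times.

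Of 26825 genes tested, 4949 were higher at E9.5 (18.4% of those tested) and 4928 were lower (18.4%) at an adjusted p under 0.05 in edgeR's quasi-likelihood test, which scales each library by its effective total and adjusts p-values over all genes (Benjamini-Hochberg). At least 2-fold changes among these numbered 1396 higher (5.2%) and 1297 lower (4.84%). All 3 E9.5 libraries lay above all 3 E8 libraries in 6897 genes (25.7%) and below them in 7093 (26.4%). Without E9.5 replicate 1 the counts were 6161 higher and 5658 lower, and without E8 replicate 3 they were 3579 and 3184. Levels are counts scaled to the library total (CPM), which are not divided by gene length and so compare libraries for 1 gene, not genes with each other, and those printed for E8.5 and E14 were scaled over all 12 libraries. Values in parentheses are log2 fold changes, E9.5 minus E8, ± a standard error (SE) derived from edgeR's test, with its adjusted p. This SE is the size of the log2 fold change divided by the square root of the test's F value. It rests on spread pooled across genes as well as on the 3 libraries a stage, and is not the spread of those libraries alone. The settings tried beside this test were other scalings and filters, DESeq2, a replicate block and each library left out in turn. Where the call of a gene given with its test ended, or its value moved over 1.5 times, under 1 of them, it is named, and so is a list's count that moved by at least 2 genes and over 1.5 times, and a separate test against a 2-fold change is given at the end.

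**Figure D1:**
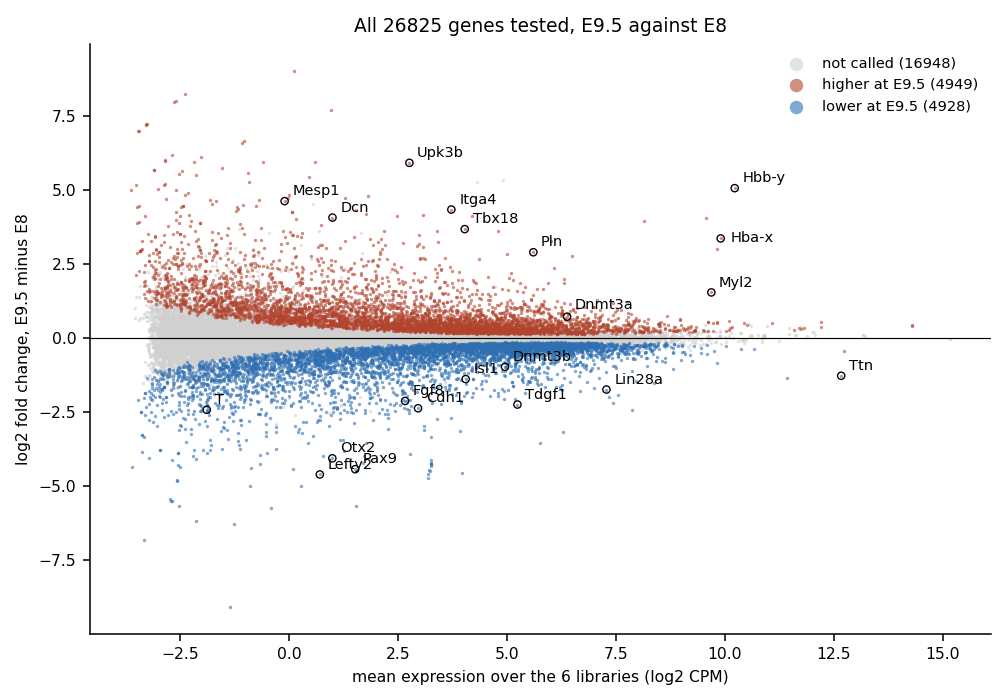
Log2 fold change (vertical axis, E9.5 minus E8) against mean expression over the 6 libraries (horizontal axis, log2 CPM) for every gene tested. Each point is 1 gene, coloured by call, and circled genes are described in the text. The 4949 higher and 4928 lower genes lie on both sides of 0 over the whole range of expression.

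Among genes of at least 10 CPM the largest rises included red cell and epicardial genes, and the largest falls included epithelial genes and signalling genes of the early embryo. The rule took the 10 largest called changes each way with 10 CPM or more on average in the stage of higher expression, no library of one stage within the range of the other, and no strongly overlapping gene. Higher at E9.5 were Upk3b, a uroplakin of mesothelium, the embryonic and adult globins Hbb-y, Hba-a1 and Hba-a2, Itga4 (integrin alpha 4), Pklr (the pyruvate kinase of liver and red cells), Trim30a, the ephrin receptor Epha3, the T-box factor Tbx18 and Pkhd1l1. Their log2 fold changes ran from 3.63 for Pkhd1l1 to 5.92 for Upk3b. Trim30a (chr7:104409025-104465193, minus strand) was at 2.08, 1.82 and 2.06 CPM at E8 and 37.7, 32 and 35.3 CPM at E9.5 (4.14 ± 0.09 SE, adjusted p = 4.99e-07), a change of 17.6-fold with little spread among libraries. It belongs to a cluster of close copies, so the split of reads between them is uncertain. Its E8.5 libraries, at 1.94 to 3.44 CPM, lay near E8, and its E14 libraries, at 20.7 to 54.6 CPM, nearer E9.5. Epha3 was at 0.696, 0.621 and 0.504 CPM at E8 and 2.43, 11.1 and 18.2 CPM at E9.5 (4.13 ± 0.83 SE, adjusted p = 0.016). Pkhd1l1 was at 1.81, 1.47 and 1.44 CPM at E8 and 8.22, 20.7 and 29.5 CPM at E9.5 (3.63 ± 0.53 SE, adjusted p = 0.00527). In both genes E9.5 replicate 1 was the lowest of its stage. The call of Epha3 ended without E8 replicate 2 or 3 and with the replicate block (adjusted p of 0.0537 to 0.0817).

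The genes lower at E9.5 by the same rule were Kcnip1, Sspn, Prdm1, Fosb, Cldn6, Cdh1, Tdgf1, Fam19a2, Fgf8 and Car4. Kcnip1 (chr11:33629339-33993152, minus strand), a potassium channel interacting protein, was at 84, 107 and 109 CPM at E8 and 9.49, 8.09 and 8.07 CPM at E9.5, 11.7-fold lower (-3.55 ± 0.12 SE, adjusted p = 9.30e-06). Sspn, sarcospan of the dystrophin complex, was at 114, 155 and 151 CPM at E8 and 11.3, 17.3 and 18.4 CPM at E9.5, 8.93-fold lower (-3.16 ± 0.22 SE, adjusted p = 0.000279). Kcnip1 stayed low at E14, at 3.09 to 3.81 CPM, while Sspn was at 74.6 to 81.5 CPM there. Prdm1, a zinc finger repressor also called Blimp1, was at 15.8, 14.2 and 15.4 CPM at E8 and 2.42, 1.49 and 1.49 CPM at E9.5 (-3.08 ± 0.18 SE, adjusted p = 6.22e-05). Car4, a membrane carbonic anhydrase known from early cardiac progenitors, was at 27.5, 30.7 and 29.6 CPM at E8 and 12.1, 5.52 and 4.73 CPM at E9.5 (-1.98 ± 0.37 SE, adjusted p = 0.0112). Fam19a2, a secreted chemokine-like protein, was at 29.96, 22 and 22.5 CPM at E8 and 8.14, 4.38 and 4.66 CPM at E9.5 (-2.12 ± 0.28 SE, adjusted p = 0.0027). Fosb, an immediate early transcription factor, was at 17.1, 18.5 and 18.6 CPM at E8 and 5.99, 1.12 and 1.14 CPM at E9.5 (-2.74 ± 0.70 SE, adjusted p = 0.035). The E9.5 libraries of all these genes lay below all E8 libraries, and those of Fosb and Car4 spread most, with replicate 1 the highest. The call of Fosb ended without E8 replicate 2 or 3 or E9.5 replicate 2 or 3, without the filter on low counts and with the replicate block (adjusted p of 0.0678 to 0.121). The call of Car4 ended without E8 replicate 3 (adjusted p = 0.0541).

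**Figure D2:**
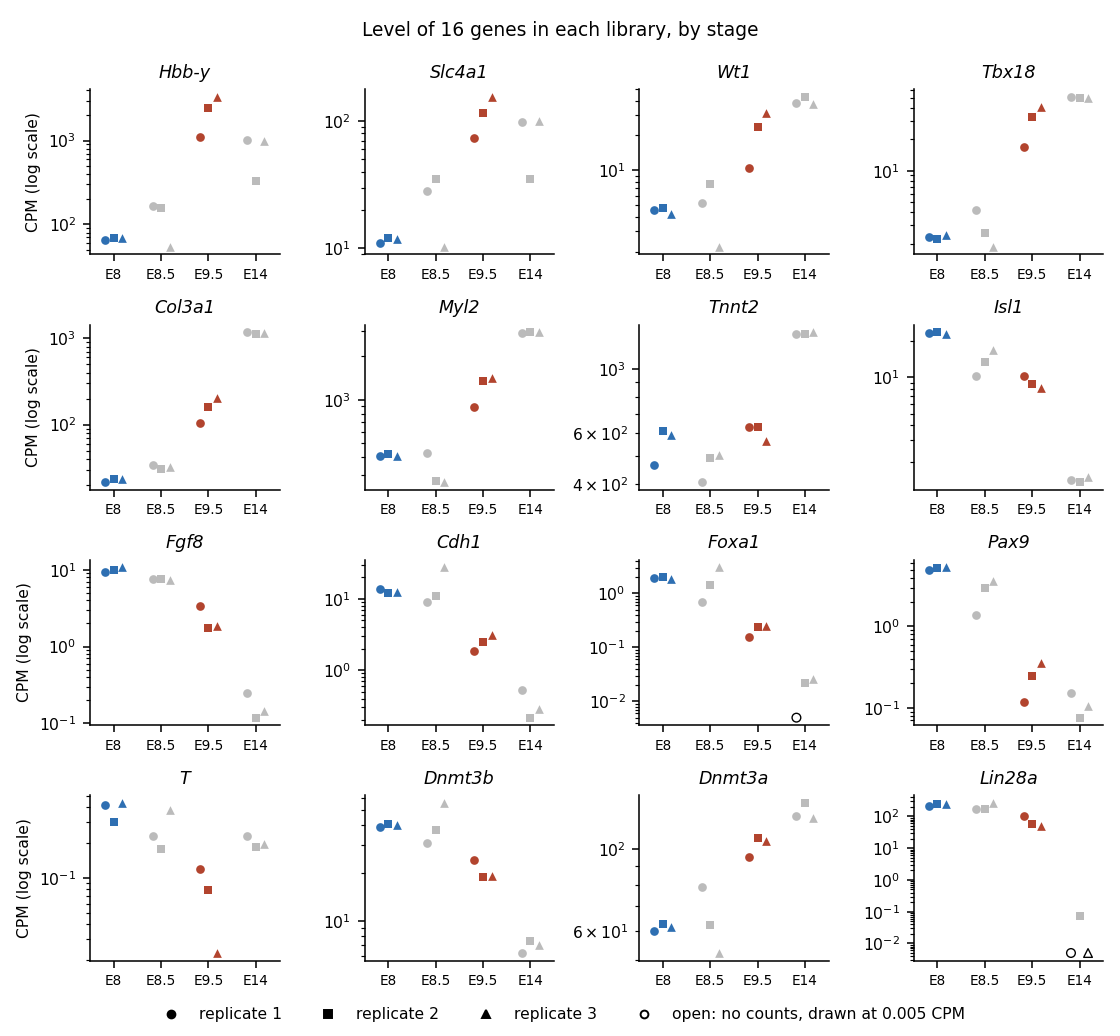
Level (vertical axes, CPM scaled over all 12 libraries, log scale) of 16 genes in each library, by stage (horizontal axes). Each symbol is 1 library, with the shape giving the replicate, E8 in blue, E9.5 in red, the stages outside the comparison in grey, and open symbols for libraries with no counts. Tnnt2 overlaps between E8 and E9.5, and the other 15 genes do not.

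**Figure D3:**
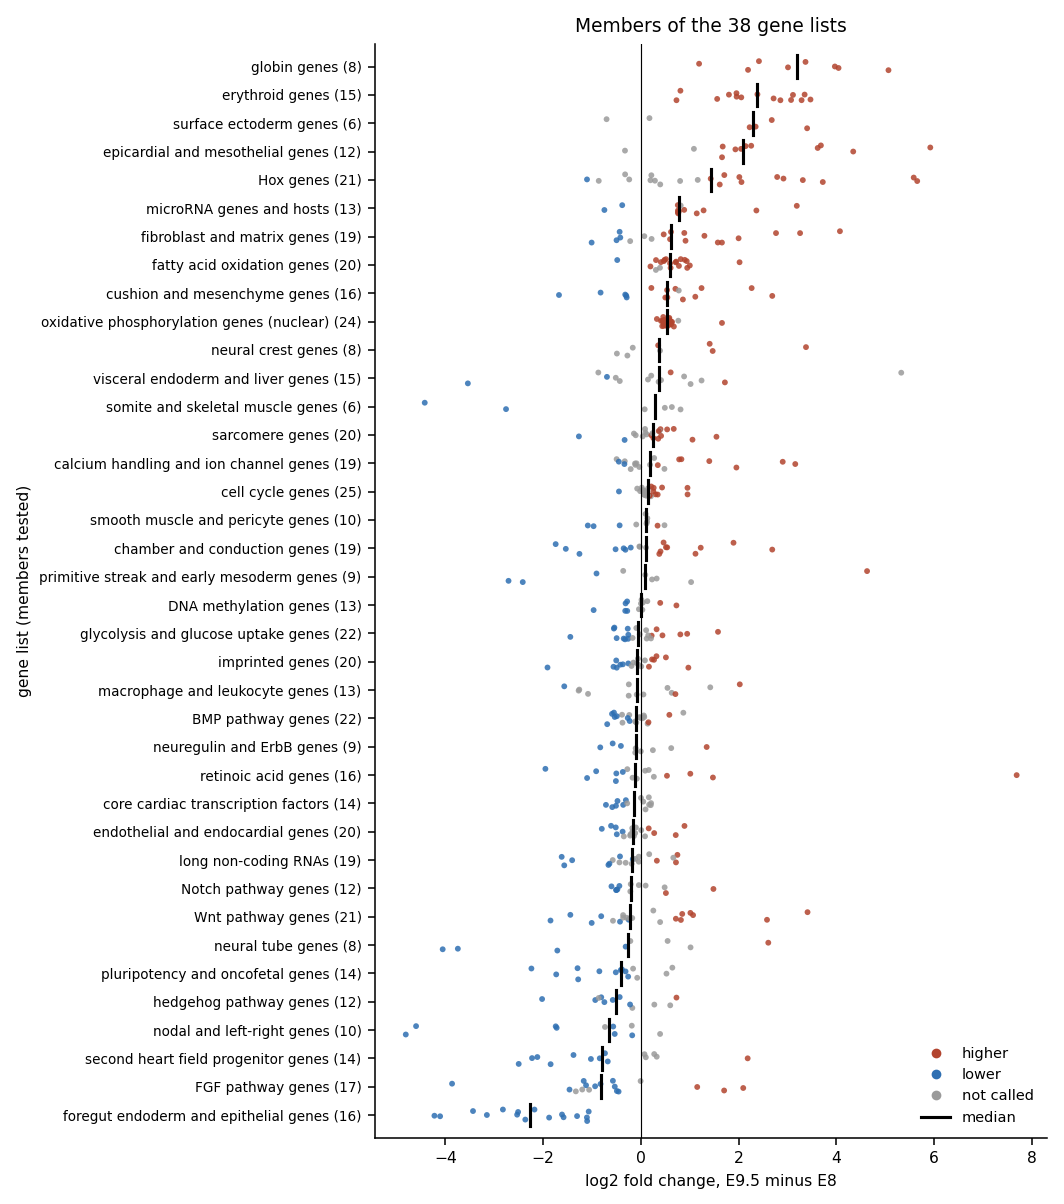
Log2 fold change (horizontal axis, E9.5 minus E8) of each tested member of the 38 gene lists (vertical axis, with the number tested), coloured by call, with the list's median as a bar. The globin median is 3.19 and the foregut endoderm and epithelial median -2.27, against 0.0039 over all genes tested.

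Red cell genes rose together. The gene lists here and below were chosen with earlier results of these data known. Their counts beside the share of all genes are therefore a description and not a test. All 8 globin genes and all 15 other erythroid genes were higher at E9.5, against 18.4% of all genes tested, with medians of 3.19 and 2.39 beside 0.0039 for all genes. Embryonic globins carry oxygen in the primitive red cells made in the yolk sac, which fill the circulation once the heart beats. Hbb-y (chr7:103851749-103853216, minus strand), the embryonic epsilon-like beta globin, was at 66.9, 70.5 and 70.4 CPM at E8 and 1124, 2469.9 and 3382 CPM at E9.5, 33.6-fold higher (5.07 ± 0.46 SE, adjusted p = 0.00084). Hba-x, the embryonic zeta globin, was at 160.2, 175 and 171 CPM at E8 and 1048, 1829 and 2359.5 CPM at E9.5 (3.37 ± 0.31 SE, adjusted p = 0.00069). Hbb-bh1, another embryonic beta-like gene, was at 194, 201 and 202 CPM at E8 and 879, 1670.0 and 2271 CPM at E9.5 (3.01 ± 0.36 SE, adjusted p = 0.00206). The adult alpha globin Hba-a1 was at 81.4, 91.1 and 88.3 CPM at E8 and 834, 1498 and 1978 CPM at E9.5 (4.05 ± 0.34 SE, adjusted p = 0.000609), though its near-identical copy Hba-a2 makes the split of reads between them uncertain. All E9.5 libraries lay above all E8 libraries in these genes, and replicate 1 was the lowest E9.5 library in each. The adult beta globin Hbb-bs was at 12.5, 11.6 and 12.6 CPM at E8 and 67.9, 42.9 and 56.9 CPM at E9.5 (2.19 ± 0.16 SE, adjusted p = 0.000221). Its near-identical copy Hbb-bt was at 4.35, 3.88 and 4.06 CPM at E8 and 21.8, 18.4 and 25.5 CPM at E9.5 (2.42 ± 0.12 SE, adjusted p = 2.60e-05). In these, E9.5 replicate 1 was not the lowest library. At E14 Hbb-bh1 was at 2.86 to 8.81 CPM and Hbb-bs at 6826 to 22191 CPM. The call of Hbb-bh2 ended in the fit of all 12 libraries (adjusted p = 0.0713).

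The erythroid regulators Gata1 and Klf1, which switch on globin and haem genes, were 4.16-fold (2.06 ± 0.24 SE, adjusted p = 0.000965) and 3.88-fold higher (1.96 ± 0.30 SE, adjusted p = 0.00412). Gata1 was at 1.72, 2.01 and 1.79 CPM at E8 and 5.07, 7.87 and 10.02 CPM at E9.5. Among membrane and cytoskeleton genes, Slc4a1 (band 3, the anion exchanger) was at 11.4, 12.3 and 12 CPM at E8 and 74.2, 117 and 157 CPM at E9.5 (3.29 ± 0.29 SE, adjusted p = 0.000763). Hemgn (hemogen) was at 1.27, 1.28 and 1.4 CPM at E8 and 8.1, 14.9 and 20.9 CPM at E9.5 (3.47 ± 0.38 SE, adjusted p = 0.0015). Smaller changes were those of Tfrc, the transferrin receptor that most growing cells carry (0.73 on the log2 scale), and Tal1, which endothelium also expresses (0.81). Every erythroid and globin call held without each library in turn. Globin counts were 0.0569% to 0.0609% of the library at E8 and 0.444%, 0.784% and 1.07% at E9.5, and with globin genes left out of the fit the counts of higher and lower genes were 5293 and 4629. The part of blood in the other differences was not tested beyond leaving out the globin genes.

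The 250 bases before the start of 2 of these genes are shown because globin and erythroid genes rose together, as RefSeq gives them on GRCm38.p6, 5′ to 3′ on the gene's strand, with motif matches in capitals. The Hbb-y window is chr7:103853208-103853457 on the minus strand, and the Alas2 window, of the erythroid enzyme of haem synthesis, is chrX:150547167-150547416 on the plus strand. Motifs searched on both strands were AGATAA, known for binding Gata factors, CCNCACCC, a motif of Klf factors, and TATAAA and CATAAA, letters found in TATA boxes. Matches were counted at any distance from the start in the window, so a match need not be a TATA box.
Hbb-y: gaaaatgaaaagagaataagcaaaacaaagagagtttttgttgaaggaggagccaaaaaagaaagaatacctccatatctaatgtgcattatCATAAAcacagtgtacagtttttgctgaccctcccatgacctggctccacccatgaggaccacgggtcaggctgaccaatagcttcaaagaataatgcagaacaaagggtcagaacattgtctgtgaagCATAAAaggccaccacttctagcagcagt
Alas2: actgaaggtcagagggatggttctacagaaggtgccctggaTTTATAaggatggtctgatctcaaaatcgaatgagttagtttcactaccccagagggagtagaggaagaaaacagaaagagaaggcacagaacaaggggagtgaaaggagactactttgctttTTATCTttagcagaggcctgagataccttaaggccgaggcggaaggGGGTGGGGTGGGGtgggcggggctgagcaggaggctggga
Hbb-y held no match to AGATAA, CCNCACCC or TATAAA, and its capitals mark CATAAA, which begins 158 and 29 bases before the start. The capitals in Alas2 mark matches on the reverse strand only, TATAAA beginning 209 bases before the start, AGATAA 86 bases before it, and a pair of overlapping CCNCACCC matches 40 and 35 bases before it. Of the 23 globin and erythroid genes 18 had such a window: AGATAA lay in 6 (33.3%), CCNCACCC in 6 (33.3%), TATAAA in 6 (33.3%) and CATAAA in 1 (5.56%). Over 32817 RefSeq windows of the same length the shares were 9.99%, 14.9%, 12.4% and 10.8%. Alas2 was at 17.2, 12.8 and 13.3 CPM at E8 and 39.1, 55 and 74.2 CPM at E9.5 (1.96 ± 0.26 SE, adjusted p = 0.00308), but its interval overlaps Apex2, so its counts are uncertain.

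**Figure D4:**
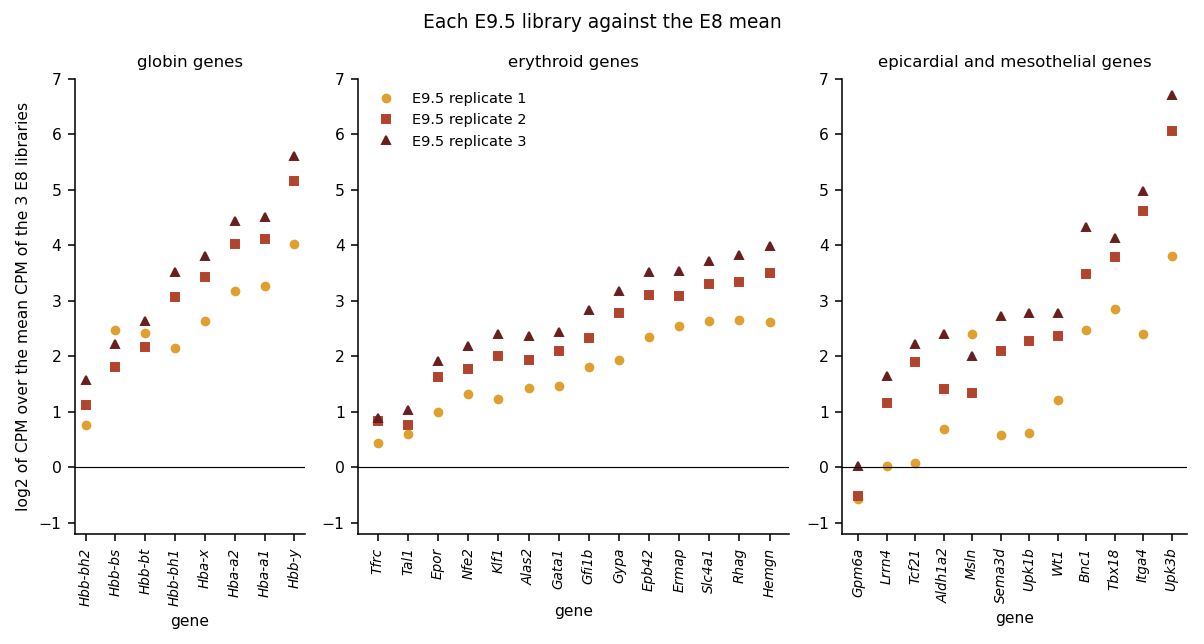
Level of each E9.5 library relative to the mean of the 3 E8 libraries (vertical axis, log2 of the CPM ratio) for the globin, erythroid and epicardial genes (horizontal axes, ordered by log2 fold change). Symbols are the 3 E9.5 libraries. Replicate 1 is the lowest of the 3 in all erythroid genes shown, and in the globin and epicardial genes except Hbb-bs, Hbb-bt and Msln.

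Genes of the epicardium and mesothelium rose. Of 12 tested, 10 were higher and 0 lower at E9.5, beside 18.4% of all genes in each direction, with a median of 2.10 on the log2 scale. The epicardium comes from the proepicardium, a mesothelial outgrowth at the inflow end, and later gives rise to fibroblasts and vascular support cells. Tbx18 (chr9:87702800-87731260, minus strand), a T-box factor of proepicardium and sinus venosus, was at 2.35, 2.26 and 2.49 CPM at E8 and 17, 32.8 and 41.4 CPM at E9.5, 12.9-fold higher (3.69 ± 0.37 SE, adjusted p = 0.00119). Wt1, the Wilms tumour factor, was at 4.66, 4.84 and 4.33 CPM at E8 and 10.7, 23.7 and 31.7 CPM at E9.5, 4.79-fold higher (2.26 ± 0.41 SE, adjusted p = 0.0105). Upk3b (chr5:136038496-136046487, plus strand) was at 0.137, 0.289 and 0.228 CPM at E8 and 3.07, 14.5 and 22.7 CPM at E9.5, 60.8-fold higher (5.92 ± 0.97 SE, adjusted p = 0.00851). All E9.5 libraries were above all E8 libraries, but within E9.5 replicate 1 was the lowest in each. Itga4, the integrin subunit by which epicardial cells attach to the myocardium, was at 1.12, 1.29 and 1.32 CPM at E8 and 6.58, 30.3 and 38.9 CPM at E9.5 (4.35 ± 0.77 SE, adjusted p = 0.0108). Bnc1, basonuclin 1, was at 0.774, 0.63 and 0.667 CPM at E8 and 3.85, 7.7 and 13.9 CPM at E9.5 (3.62 ± 0.52 SE, adjusted p = 0.00384). Tcf21, Upk1b, Aldh1a2, Sema3d and Msln were also called, and Lrrn4 (1.09 ± 0.39 SE, adjusted p = 0.0811) and Gpm6a (-0.33 ± 0.16 SE, adjusted p = 0.146) were not. Lrrn4 (1.43 ± 0.13 SE, adjusted p = 0.000189) was called without E9.5 replicate 1. At E14 Tbx18 stood at 49.3 to 51.2 CPM and Wt1 at 37.6 to 43.1 CPM, and at E8.5 at 1.85 to 4.21 and 2.2 to 7.63 CPM. The number of calls in the list changed with the library left out, while its median ran from 1.79 to 2.51. The number called higher was 6 without E8 replicate 1, 6 without E8 replicate 2, 3 without E8 replicate 3 and 6 without E9.5 replicate 2. It was 11 without E9.5 replicate 1 and 6 without the filter on low counts. Calls over all genes changed too, with 3579 higher without E8 replicate 3, against 4949. The calls of Wt1, Upk3b and Itga4 ended without E8 replicate 3 (adjusted p of 0.0545 to 0.0623). Tcf21, Upk1b, Aldh1a2 and Sema3d lost theirs when any 1 E8 library or E9.5 replicate 2 was left out, with no filter on low counts, and under some other settings, and Msln lost its call in the fit of all 12 libraries. Tbx18 and Bnc1 kept their calls under each setting.

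Several mesenchymal transcription factors and fibrillar collagens rose, while genes of cardiac jelly fell. Of 16 cushion and mesenchyme genes 10 were higher and 5 lower (median 0.54), and of 19 fibroblast and matrix genes 12 were higher and 4 lower (median 0.62). Over all genes the share was 18.4% in each direction, and the 4 of 19 matrix genes lower lie near it. Endocardial cushions form when endocardial cells invade the jelly between endocardium and myocardium and become mesenchyme, the source of the valves. Postn, periostin of cushion and fibroblast matrix, was at 5.25, 5.53 and 5.81 CPM at E8 and 27.1, 29.1 and 50.8 CPM at E9.5 (2.69 ± 0.27 SE, adjusted p = 0.00117). Sox9, a factor of cushion mesenchyme, was at 1.41, 1.27 and 1.41 CPM at E8 and 4.16, 6.8 and 8.72 CPM at E9.5 (2.27 ± 0.26 SE, adjusted p = 0.000895). Twist1, a mesenchymal bHLH factor, was at 4.19, 4.35 and 4.43 CPM at E8 and 6.85, 10.3 and 13.5 CPM at E9.5 (1.24 ± 0.23 SE, adjusted p = 0.00723). Snai1, a zinc finger factor of the change from epithelium to mesenchyme, was 2.16-fold higher (1.11 ± 0.16 SE, adjusted p = 0.00121), and Msx1, Msx2 and Twist2 were higher by 0.50, 0.54 and 0.71 on the log2 scale. In each of these genes the E9.5 libraries lay above the E8 libraries. Has2, the hyaluronan synthase that makes cardiac jelly, went the other way, at 199, 192 and 194 CPM at E8 and 66.9, 63.6 and 52.6 CPM at E9.5 (-1.68 ± 0.09 SE, adjusted p = 2.47e-05). Vcan, the proteoglycan versican of the same jelly, was at 1255, 1106 and 1119 CPM at E8 and 682, 672 and 610.3 CPM at E9.5 (-0.82 ± 0.08 SE, adjusted p = 0.000253). Of the matrix genes, Col3a1 was at 22, 23.7 and 23.6 CPM at E8 and 106, 159.8 and 205 CPM at E9.5, 6.8-fold higher (2.77 ± 0.25 SE, adjusted p = 0.000725). The small proteoglycan Dcn, decorin, was at 0.196, 0.254 and 0.228 CPM at E8 and 2.1, 3.43 and 5.96 CPM at E9.5 (4.08 ± 0.42 SE, adjusted p = 0.000662). Lum, lumican, was at 0.706, 0.901 and 0.74 CPM at E8 and 9.28, 4.23 and 9.03 CPM at E9.5 (3.26 ± 0.34 SE, adjusted p = 0.00076). Col1a1 was 3.16-fold higher. Col5a1 fell (-1.01 ± 0.09 SE, adjusted p = 0.000212) although Col5a2, which assembles with it, rose (0.91 ± 0.08 SE, adjusted p = 0.000131), and Fbn1, Fbn2 and Fbln1 were lower by 0.42 to 0.50 on the log2 scale. Fn1, fibronectin, was not called (-0.22 ± 0.11 SE, adjusted p = 0.153). At E14 Col3a1 reached 1123 to 1183 CPM. The number of cushion genes called higher was 7 to 10 with each library left out, and the number called lower was 3 without E8 replicate 2, 3 without E8 replicate 3, 2 without E9.5 replicate 2 and 3 without E9.5 replicate 3. In the fit of all 12 libraries 2 were lower. Fn1 (-0.31 ± 0.08 SE, adjusted p = 0.0194) was called without E9.5 replicate 1.

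Genes of the foregut endoderm and of epithelia, listed with earlier results of these data known, fell as a group. All 16 tested members were lower at E9.5, each at least 2-fold, beside 18.4% of all genes lower and 4.84% lower by that much, with a median of -2.27, and their summed level went from 323 to 342 CPM at E8 to 118 to 149.7 CPM at E9.5. The foregut lies directly beneath the heart tube and signals to it, and its cells are an epithelium that keeps E-cadherin. Of its transcription factors, Foxa1 was at 1.97, 2.03 and 1.88 CPM at E8 and 0.159, 0.24 and 0.254 CPM at E9.5 (-3.15 ± 0.19 SE, adjusted p = 4.43e-05) and Foxa2 was 7.08-fold lower (-2.82 ± 0.19 SE, adjusted p = 6.09e-05). Pyy, a peptide hormone gene, had the largest fall, at 5.69, 6.11 and 6.11 CPM at E8 and 0.398, 0.48 and 0.0809 CPM at E9.5 (-4.23 ± 0.46 SE, adjusted p = 0.00113). Cdh1 (chr8:106603351-106670246, plus strand), which encodes E-cadherin, was at 14, 12.3 and 12.5 CPM at E8 and 1.86, 2.5 and 3.13 CPM at E9.5, 5.15-fold lower (-2.37 ± 0.17 SE, adjusted p = 0.000119). Epcam, an epithelial adhesion molecule, was at 8.74, 8.64 and 9.38 CPM at E8 and 1.51, 1.95 and 2.43 CPM at E9.5 (-2.18 ± 0.16 SE, adjusted p = 7.60e-05). The tight junction claudin Cldn6 was at 10.4, 12 and 11.7 CPM at E8 and 1.31, 1.77 and 2.8 CPM at E9.5 (-2.53 ± 0.25 SE, adjusted p = 0.000598). Cldn4, another claudin, was at 6.61, 7.31 and 7.25 CPM at E8 and 0.624, 1.63 and 1.42 CPM at E9.5 (-2.51 ± 0.31 SE, adjusted p = 0.00136). Grhl2 and Esrp1, regulators of epithelial transcription and splicing, were 3- and 3.68-fold lower. No E9.5 library of these genes reached the lowest E8 library. Replicate 1 was the lowest E9.5 library in Foxa1, Cldn6, Cldn4, Cdh1, Epcam, Esrp1 and Grhl2. Krt8 and Krt18, keratins that early myocardium also carries, were 2.15- and 2.47-fold lower. Nkx2-1, Shh, Pax8 and Prss8 have intervals overlapped by ones of similar or higher count, and their values are uncertain. The call of Prss8 ended in the fit of all 12 libraries (adjusted p = 0.155). The log2 fold change of Nkx2-1 was -7.57 without E9.5 replicate 1, against -4.11. All 16 calls held when each library was left out in turn. At E14 Cdh1 was at 0.216 to 0.532 CPM.

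The 250 bases before the start of Epcam, Cldn6 and Cldn4 are shown because these 3 epithelial genes fell together, again from RefSeq on GRCm38.p6, 5′ to 3′ on the gene's strand. The motif searched on both strands was CAGGTG, a form of the E-box. The windows are chr17:87635729-87635978 on the plus strand, chr17:23679115-23679364 on the plus strand and chr5:134946935-134947184 on the minus strand, and capitals mark CAGGTG or its reverse complement.
Epcam: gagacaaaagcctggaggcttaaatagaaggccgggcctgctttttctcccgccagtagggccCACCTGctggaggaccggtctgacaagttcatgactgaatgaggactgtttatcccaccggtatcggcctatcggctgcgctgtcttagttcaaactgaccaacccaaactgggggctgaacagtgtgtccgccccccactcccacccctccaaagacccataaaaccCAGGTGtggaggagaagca
Cldn6: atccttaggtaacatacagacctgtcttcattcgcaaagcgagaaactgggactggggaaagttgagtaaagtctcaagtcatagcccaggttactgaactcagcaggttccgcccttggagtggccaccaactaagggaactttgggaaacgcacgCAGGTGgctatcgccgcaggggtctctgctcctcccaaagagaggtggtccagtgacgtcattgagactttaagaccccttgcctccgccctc
Cldn4: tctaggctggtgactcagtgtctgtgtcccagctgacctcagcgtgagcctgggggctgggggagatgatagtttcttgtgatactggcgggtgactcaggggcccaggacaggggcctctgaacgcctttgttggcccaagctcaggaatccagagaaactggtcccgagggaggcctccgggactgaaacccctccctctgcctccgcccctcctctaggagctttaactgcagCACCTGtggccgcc
The match begins 187 and 19 bases before the start in Epcam, 93 in Cldn6 and 14 in Cldn4. Of the 16 listed genes 11 had a RefSeq window, and 7 of these held the motif (63.6%), beside 17.2% of all windows of that length. The match is a description of the letters, and binding was not measured.

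Markers of other neighbouring tissues moved in both directions, and several were below the filter on low counts. Their counts stand beside 18.4% of all genes called in each direction. Pax9 and Pax1, markers of pharyngeal pouch endoderm as well as of sclerotome, were 21.5- and 6.78-fold lower, with Pax9 at 5.14, 5.39 and 5.43 CPM at E8 and 0.119, 0.251 and 0.358 CPM at E9.5 (-4.42 ± 0.28 SE, adjusted p = 6.50e-05). The Pax9 interval is overlapped by the more abundant Slc25a21, so its value is uncertain, and Pax1 has no such partner (-2.76 ± 0.45 SE, adjusted p = 0.00258). The myogenic factors Myod1, Myf5 and Myog did not pass the filter on low counts, and 4 further somite genes were not called, while 2 genes of that list were higher without E9.5 replicate 1. Of the neural tube list, Otx2, a factor of fore- and midbrain and anterior endoderm, was at 3.35, 3.46 and 4.01 CPM at E8 and 0.372, 0.16 and 0.127 CPM at E9.5 (-4.06 ± 0.34 SE, adjusted p = 0.000205). Sox2 and Pax6 fell by 3.75 and 1.71 on the log2 scale but are overlapped by Sox2ot and Pax6os1, and Sox1, En1, Hes5, Neurog2 and Zic1 were below the filter. Over the neural tube list 1 of 8 tested rose and 4 fell, 4 rose without E9.5 replicate 1, and without overlapped genes 0 rose and 2 fell. Of 6 surface ectoderm genes tested 4 were higher and 0 lower. The keratin Krt15 was at 0.147, 0.149 and 0.195 CPM at E8 and 1.18, 1.69 and 2.37 CPM at E9.5 (3.40 ± 0.30 SE, adjusted p = 0.00017). Grhl3 was at 0.421, 0.455 and 0.415 CPM at E8 and 1.98, 2.62 and 3.69 CPM at E9.5 (2.68 ± 0.24 SE, adjusted p = 0.000182). Krt5 and Krt14, keratins of later epidermis, were below the filter. Of 8 neural crest genes tested 4 were higher, led by Tfap2b at 0.0294, 0.0612 and 0.0813 CPM at E8 and 0.106, 0.503 and 1.24 CPM at E9.5. Dlx2 was at 0.0882, 0.105 and 0.0894 CPM at E8 and 0.212, 0.206 and 0.37 CPM at E9.5, and Sox10, which marks migrating crest, was not called (-0.49 ± 0.31 SE, adjusted p = 0.246). The call of Tfap2b ended without E8 replicate 1, 2 or 3 or E9.5 replicate 2 and without the filter on low counts (adjusted p of 0.0595 to 0.0961). The call of Dlx2 ended without E9.5 replicate 3 (adjusted p = 0.0519). With a minimum of 1 CPM in 3 libraries 1 crest gene was called.

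Visceral endoderm and liver genes differed among the E9.5 libraries. Afp, alpha-fetoprotein, was at 1.26, 1.7 and 1.44 CPM at E8 and 2.02, 62 and 113 CPM at E9.5 and was not called (5.33 ± 1.53 SE, adjusted p = 0.0534), with an interval that overlaps Gm43449. E9.5 replicates 2 and 3 were far above E8 and replicate 1 was near it. Alb, albumin, at 0.049, 0.035 and 0.00813 CPM at E8 and 0.0133, 2.32 and 4.72 CPM at E9.5, was below the filter. Over the list 2 genes were called higher and 2 lower of 15, beside 18.4% of all genes in each direction. The summed level was 32.7 to 33.5 CPM at E8 and 17.5 to 154 CPM at E9.5. Without E9.5 replicate 1 the list had 8 higher and 3 lower, with DESeq2 5 and 4, without any other 1 library none higher and 2 to 4 lower, and without overlapped genes 0 and 2. Afp (5.90 ± 0.37 SE, adjusted p = 0.000971) was called without E9.5 replicate 1. Spink1, a trypsin inhibitor gene of early gut endoderm, fell with little spread, at 6.42, 5.81 and 6.23 CPM at E8 and 0.597, 0.537 and 0.451 CPM at E9.5 (-3.54 ± 0.13 SE, adjusted p = 5.26e-06). Of the macrophage list, Mrc1 was lower (-1.57 ± 0.11 SE, adjusted p = 6.64e-05), Lyz2 and Fcgr1 were higher (2.02 and 0.71 on the log2 scale), and Ptprc, the pan-leukocyte gene, was at 0.127, 0.157 and 0.179 CPM at E8 and 0.783, 0.206 and 0.277 CPM at E9.5 and not called. The macrophage list had 3 lower of 13 without E9.5 replicate 1, against 1. Mrc1 is also found on endothelium, and Aif1 was below the filter. The part of liver-like tissue in the other differences was not tested beyond leaving out E9.5 replicate 1.

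Most second heart field genes tested were lower at E9.5. Of 14 tested 9 fell and 1 rose, beside 18.4% of all genes each way, with a median of -0.79, and the counts were 7 to 9 lower with each library left out. These genes mark the progenitors behind the tube that are added to its outflow and inflow ends. Isl1 (chr13:116298281-116309689, minus strand), their best known factor, was at 24, 24.2 and 23.5 CPM at E8 and 10.4, 8.89 and 8.28 CPM at E9.5, 2.6-fold lower (-1.38 ± 0.08 SE, adjusted p = 4.43e-05). Tbx1, a T-box factor of pharyngeal progenitors, was at 2.71, 3.1 and 3.05 CPM at E8 and 0.252, 0.594 and 0.705 CPM at E9.5 (-2.50 ± 0.31 SE, adjusted p = 0.00104). The outflow ligand Fgf8 was at 9.45, 10.2 and 10.9 CPM at E8 and 3.4, 1.78 and 1.88 CPM at E9.5, 4.35-fold lower (-2.12 ± 0.24 SE, adjusted p = 0.00098). Fgf10 fell by 0.74 on the log2 scale. In each the E8 and E9.5 libraries were fully apart. Nr2f1, an atrial and inflow nuclear receptor, was the gene that rose, at 2.71, 2.61 and 2.61 CPM at E8 and 12.9, 11.1 and 12.1 CPM at E9.5 (2.19 ± 0.08 SE, adjusted p = 5.26e-06), with an interval partly shared with A830082K12Rik. Sema3c, Foxc1, Foxc2 and Osr1 were not called, with log2 fold changes of 0.07 to 0.32. Foxc1 (0.35 ± 0.09 SE, adjusted p = 0.0129) was called without E9.5 replicate 1. Isl1 was at 10.3 to 16.7 CPM at E8.5 and 1.35 to 1.5 CPM at E14. The call of Fgf10 ended in the fit of all 12 libraries (adjusted p = 0.0837).

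Most FGF pathway genes that changed fell with Fgf8. In a list that leaves out Fgf8 and Fgf10, of 17 FGF pathway genes 10 fell and 3 rose (median -0.83), beside 18.4% of all genes in each direction, so that the rises were near the background share. FGF ligands act through receptor tyrosine kinases and ERK, and Spry, Dusp6, Etv4 and Etv5 are induced by that signal in many tissues. These response genes fell. Etv5 was at 67.2, 69.6 and 68.8 CPM at E8 and 32.7, 31.9 and 29.8 CPM at E9.5 (-1.12 ± 0.05 SE, adjusted p = 1.59e-05). Spry1 was at 9.73, 9.63 and 10.6 CPM at E8 and 3.2, 3.59 and 4.09 CPM at E9.5 (-1.46 ± 0.10 SE, adjusted p = 7.06e-05). Spry4 was at 23.8, 24.5 and 23.4 CPM at E8 and 12.4, 9.65 and 9.82 CPM at E9.5 (-1.17 ± 0.10 SE, adjusted p = 0.000136). Dusp6, the ERK phosphatase, was lower by a smaller step (-0.53 ± 0.04 SE, adjusted p = 0.000136), as were Spry2 (-0.49) and Etv4 (-0.46). Of the receptors Fgfr1, Fgfr3 and Fgfr4 fell, and Fgfr2 was not called (-0.01 ± 0.06 SE, adjusted p = 0.954). Genes of the Fgf family itself went both ways. Fgf16 was at 0.421, 0.324 and 0.537 CPM at E8 and 0.0398, 0.0114 and 0.0347 CPM at E9.5 (-3.87 ± 0.43 SE, adjusted p = 0.000433). Fgf9, made by epicardium and endocardium, was at 0.715, 0.796 and 0.577 CPM at E8 and 2.35, 3.37 and 3.2 CPM at E9.5 (2.10 ± 0.19 SE, adjusted p = 0.000195), and Fgf12 (1.70) and Fgf18 (1.15) also rose. The call of Fgfr4 ended without E8 replicate 2 or 3 or E9.5 replicate 2, with DESeq2 and in the fit of all 12 libraries (adjusted p of 0.0643 to 0.306).

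Most hedgehog and Nodal pathway genes tested were also lower, beside 18.4% of all genes in each direction. Of 12 hedgehog genes 7 fell and 1 rose (median -0.50), and of 10 Nodal and left-right genes 7 fell and 0 rose (median -0.65). Hedgehog signal from the foregut reaches second heart field cells through the receptor Ptch1, which like Hhip and Gli1 is also a target of the pathway. Ptch1 was at 92.4, 87.8 and 85.9 CPM at E8 and 59.7, 47.6 and 44.3 CPM at E9.5 (-0.81 ± 0.11 SE, adjusted p = 0.00113). Hhip was at 4.98, 4.21 and 4.11 CPM at E8 and 1.19, 0.937 and 1.14 CPM at E9.5 (-2.02 ± 0.14 SE, adjusted p = 6.41e-05) and the transducer Smo was 1.49-fold lower (-0.58 ± 0.06 SE, adjusted p = 0.000287). Boc, a co-receptor, rose (0.73 ± 0.12 SE, adjusted p = 0.0024), and the transcription factors Gli2 and Gli3 were not called. Nodal on the left side of the embryo induces its own antagonists Lefty1 and Lefty2. Lefty2 was at 2.94, 2.8 and 3.23 CPM at E8 and 0.226, 0.0685 and 0.0809 CPM at E9.5, 24.3-fold lower (-4.60 ± 0.36 SE, adjusted p = 0.000135). Lefty1 was at 0.274, 0.28 and 0.228 CPM at E8 and 0.0133, 0.0114 and 0 CPM at E9.5, so that both were near 0 at E9.5, with too few counts in Lefty1 for a fold. Foxh1, a transcription factor of Nodal signalling, was at 45.9, 53.4 and 51.3 CPM at E8 and 22.1, 11.9 and 11.2 CPM at E9.5 (-1.74 ± 0.28 SE, adjusted p = 0.00603), and the co-receptor Cfc1 was 3.3-fold lower (-1.72 ± 0.20 SE, adjusted p = 0.000543). Tdgf1, or Cripto, a relative of Cfc1, was at 58.7, 63.2 and 65 CPM at E8 and 19.2, 12.1 and 8.37 CPM at E9.5 (-2.24 ± 0.30 SE, adjusted p = 0.00321). Nodal itself was at 0.252 to 0.341 CPM at E8 and 0.127 to 0.228 CPM at E9.5 and was not called (-0.73 ± 0.30 SE, adjusted p = 0.086). The number of hedgehog genes called lower was 4 in the fit of all 12 libraries, and with the replicate block 3 were higher.

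The core cardiac transcription factors changed little, and none more than 2-fold. Of 14 tested 6 fell and 0 rose (median -0.14), beside 18.4% of all genes in each direction. Nkx2-5, the homeobox factor that defines the cardiac lineage, was at 94.1, 106 and 106 CPM at E8 and 81.1, 71.8 and 66.7 CPM at E9.5 (-0.48 ± 0.08 SE, adjusted p = 0.00323). Mef2c was at 356, 303 and 313 CPM at E8 and 258, 211 and 178 CPM at E9.5 (-0.59 ± 0.13 SE, adjusted p = 0.0131). Myocd, the coactivator myocardin, was at 337, 285 and 288 CPM at E8 and 242, 169 and 145 CPM at E9.5 (-0.72 ± 0.19 SE, adjusted p = 0.0292), and Gata5, Srf and Tbx20 fell by 0.51, 0.36 and 0.31 on the log2 scale, Srf with a stronger overlapping interval. Gata4 (0.21 ± 0.09 SE, adjusted p = 0.093), Tbx5 (0.16 ± 0.12 SE, adjusted p = 0.327) and Hand2 (0.05 ± 0.08 SE, adjusted p = 0.667) were not called. The call of Myocd ended without E8 replicate 1, 2 or 3 or E9.5 replicate 2 and without the filter on low counts (adjusted p of 0.063 to 0.0973). The call of Gata5 ended without E8 replicate 1, 2 or 3 or E9.5 replicate 2 or 3 (adjusted p of 0.0575 to 0.0884). The call of Srf ended without E8 replicate 3 or E9.5 replicate 2 (adjusted p of 0.05003 to 0.0537). The call of Tbx20 ended without E8 replicate 1, 2 or 3 or E9.5 replicate 2 or 3, in the fit of all 12 libraries, without globin genes and without small structural RNAs (adjusted p of 0.0503 to 0.149). With each library left out the number called lower was 3 without E8 replicate 1, 3 without E8 replicate 2, 2 without E8 replicate 3 and 2 without E9.5 replicate 2, and without overlapped genes 3 were higher.

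Some sarcomere genes rose, with 10 of 20 higher, 2 lower and a median of 0.25, beside 18.4% of all genes in each direction. The largest rises were in Myl2 and Tnni3. Myl2, the ventricular regulatory light chain, was at 417, 428 and 418 CPM at E8 and 898, 1369 and 1423 CPM at E9.5, 2.92-fold higher (1.55 ± 0.17 SE, adjusted p = 0.000614). Tnni3, the troponin I of the mature heart, was at 79.1, 83.5 and 82.6 CPM at E8 and 154, 182 and 174 CPM at E9.5 (1.06 ± 0.07 SE, adjusted p = 6.09e-05). Tnni1, the troponin I of the embryonic heart, rose less (0.41 ± 0.07 SE, adjusted p = 0.00344). The E9.5 libraries lay above the E8 libraries in all 3 genes, and Myl2 was at 2908 to 2952 CPM at E14. Csrp3 and Myl3 were higher by 0.67 and 0.54 on the log2 scale. Main components of the thick and thin filament were not called. Myh6 was at 2747, 3298 and 3198 CPM at E8 and 3315, 3405 and 3146 CPM at E9.5 (0.09 ± 0.09 SE, adjusted p = 0.449). Myh7 was at 2615, 3252 and 3099.6 CPM at E8 and 3043, 4401 and 4245 CPM at E9.5 (0.38 ± 0.15 SE, adjusted p = 0.0853), and Tnnt2, Myl7 and Tpm1 had log2 fold changes of 0.12, 0.09 and -0.14. Myh7 (0.54 ± 0.10 SE, adjusted p = 0.00367) was called without E9.5 replicate 1. Ttn, titin, the giant spring of the sarcomere, fell, at 9954, 8789.6 and 8846 CPM at E8 and 4285, 3977 and 3189 CPM at E9.5 (-1.27 ± 0.12 SE, adjusted p = 0.000257), as did Nebl (-0.33 ± 0.08 SE, adjusted p = 0.0115). The E8.5 libraries of Ttn were spread over 4825 to 14423 CPM.

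Of 19 calcium handling and ion channel genes 7 rose and 2 fell (median 0.19), beside 18.4% of all genes each way. Kcnj3, a subunit of the acetylcholine-gated potassium channel of atrium, was at 1.11, 0.944 and 0.772 CPM at E8 and 6.11, 10.5 and 8.53 CPM at E9.5 (3.16 ± 0.23 SE, adjusted p = 0.000135). Kcnj2, of the inward rectifier current, was at 1.4, 1.52 and 1.63 CPM at E8 and 4.14, 6.88 and 6.63 CPM at E9.5 (1.96 ± 0.20 SE, adjusted p = 0.000339). Pln, phospholamban, the inhibitor of the calcium pump, was at 11.7, 11.6 and 11.2 CPM at E8 and 37, 99.2 and 122 CPM at E9.5 (2.90 ± 0.48 SE, adjusted p = 0.00856), with an interval overlapped by the more abundant Cep85l. Cacna1h, a T-type calcium channel, rose by 0.83 on the log2 scale. The calcium pump Atp2a2 (-0.11 ± 0.08 SE, adjusted p = 0.317), the release channel Ryr2 (-0.12 ± 0.16 SE, adjusted p = 0.605), the exchanger Slc8a1 (-0.09 ± 0.20 SE, adjusted p = 0.761) and the pacemaker channel Hcn4 (-0.33 ± 0.23 SE, adjusted p = 0.32) were not called. Atp2a2 (-0.18 ± 0.06 SE, adjusted p = 0.0437) and Hcn4 (-0.64 ± 0.05 SE, adjusted p = 6.38e-05) were called without E9.5 replicate 1. The call of Pln ended without E8 replicate 3 (adjusted p = 0.0506). Without E9.5 replicate 1 the list had 8 higher and 5 lower and its median was -0.0042, on the other side of 0. The number lower was 0 in the fit of all 12 libraries and 0 without overlapped genes.

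Chamber and conduction genes split, with 9 of 19 higher and 7 lower (median 0.11), beside 18.4% of all genes in each direction. Nppa, the natriuretic peptide of working chamber muscle, was at 122, 136 and 131 CPM at E8 and 243, 329 and 337 CPM at E9.5, 2.34-fold higher (1.23 ± 0.12 SE, adjusted p = 0.00042), in an interval that shares reads with Gm13054. Shox2 and Nr2f2, factors of the sinus venosus and atria, were 6.45- and 3.72-fold higher, with Nr2f2 at 5.44, 4.73 and 5.03 CPM at E8 and 22.1, 16.3 and 18.3 CPM at E9.5 (1.90 ± 0.12 SE, adjusted p = 4.65e-05). Shox2 was at 0.853, 0.848 and 0.846 CPM at E8 and 6.57, 4.66 and 5.22 CPM at E9.5 but is overlapped by the more abundant Rsrc1. Cited1 and the connexin Gja5 rose by 1.12 and 0.54 on the log2 scale. Iroquois factors fell. Irx2 was at 38.2, 40.1 and 41 CPM at E8 and 14.7, 10.8 and 10.1 CPM at E9.5 (-1.74 ± 0.14 SE, adjusted p = 0.000184), Irx1 was 2.9-fold lower and Irx3 2.39-fold lower. Irx4, the ventricular member, fell less (-0.32 ± 0.07 SE, adjusted p = 0.00735), as did Tbx3 (-0.52 ± 0.05 SE, adjusted p = 0.000363), a repressor of chamber genes in the conduction system. Bmp10, Nppb and Hey1 were not called. Nppb (0.19 ± 0.05 SE, adjusted p = 0.0179) was called without E9.5 replicate 1. The call of Gja5 ended without E8 replicate 1 or 3 or E9.5 replicate 3 (adjusted p of 0.0516 to 0.0657).

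Endothelial and endocardial genes showed no common direction. Of 20 tested 4 rose (20%) and 5 fell (25%), beside 18.4% of all genes in each direction, with a median of -0.17. Emcn, endomucin of endocardium and veins, was at 16.3, 13.1 and 14.4 CPM at E8 and 21.3, 30.7 and 29.4 CPM at E9.5 (0.89 ± 0.15 SE, adjusted p = 0.00407). Sox17 and Dll4, of arterial and early endothelium, fell by 0.80 and 0.61 on the log2 scale, and Cdh5, VE-cadherin, was at 88.6, 95.3 and 93 CPM at E8 and 79.8, 67.4 and 66.7 CPM at E9.5 (-0.37 ± 0.08 SE, adjusted p = 0.00698). Pecam1 (0.09 ± 0.07 SE, adjusted p = 0.357), Kdr (-0.18 ± 0.07 SE, adjusted p = 0.0746) and Nfatc1 (-0.14 ± 0.15 SE, adjusted p = 0.507) were not called. Kdr (-0.23 ± 0.06 SE, adjusted p = 0.0124) and Nfatc1 (-0.33 ± 0.06 SE, adjusted p = 0.00355) were called without E9.5 replicate 1. With each library left out the median ran from -0.27 to -0.11, and the number of calls changed. Without E9.5 replicate 1 there were 4 higher and 13 lower. The number higher was 2 without E8 replicate 1, 1 without E8 replicate 2, 2 without E8 replicate 3 and 2 without E9.5 replicate 2. In the fit of all 12 libraries it was 1. Of 10 smooth muscle and pericyte genes 1 rose (10%) and 3 fell (30%), beside the same share of all genes. The falls were led by the pericyte gene Rgs5 at 24.4, 23.8 and 24.9 CPM at E8 and 10.3, 12.1 and 12 CPM at E9.5 (-1.09 ± 0.07 SE, adjusted p = 5.58e-05). The early smooth muscle genes Acta2, Tagln and Cnn1, which the young myocardium also expresses, were not called.

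The other signalling pathways changed in both directions. Their counts stand beside 18.4% of all genes called in each direction. Of 21 Wnt pathway genes 7 rose (33.3%) and 6 fell (28.6%), with a median of -0.23. Antagonists went both ways. Dkk2 was at 0.568, 0.533 and 0.366 CPM at E8 and 2.91, 4.36 and 8.3 CPM at E9.5 (3.41 ± 0.44 SE, adjusted p = 0.00216). Sfrp1 was 2.02-fold higher (1.01 ± 0.10 SE, adjusted p = 0.000338). Frzb, a secreted Wnt antagonist, was at 9.45, 9.99 and 10.2 CPM at E8 and 2.75, 2.43 and 3.04 CPM at E9.5 (-1.85 ± 0.10 SE, adjusted p = 2.47e-05). Rspo2, which strengthens Wnt signals, was at 0.696, 0.437 and 0.374 CPM at E8 and 2.38, 2.96 and 3.65 CPM at E9.5 (2.58 ± 0.26 SE, adjusted p = 0.000345), and Wnt5a and Wnt11, non-canonical ligands of the outflow tract, fell by 1.01 and 0.68. Axin2, a feedback target of canonical signalling, was higher (0.85 ± 0.08 SE, adjusted p = 0.00028). The number of Wnt genes called lower was 3 without E8 replicate 1, 3 without E8 replicate 3 and 3 without E9.5 replicate 2. Of 22 BMP pathway genes 7 fell (31.8%) and 2 rose (9.09%), none 2-fold. The BMP targets Id1 and Id3 were lower (-0.69 ± 0.09 SE, adjusted p = 0.000785, and -0.49 ± 0.06 SE, adjusted p = 0.000523), as were the effectors Smad1 and Smad9 (-0.55 and -0.54), while Bmp4, Bmp2 and Bmp7 were not called. Bmp2 (-0.59 ± 0.06 SE, adjusted p = 0.00017) was called without E9.5 replicate 1. Id2 and Bmpr1b were the 2 called higher. Without E8 replicate 2 or 3 or E9.5 replicate 2 or 3, and without the filter on low counts, 0 BMP genes were higher. The call of Id2 ended without E8 replicate 1, 2 or 3 or E9.5 replicate 2 or 3, in the fit of all 12 libraries and without the filter on low counts (adjusted p of 0.0589 to 0.281). The call of Bmpr1b ended without E8 replicate 2 or 3 or E9.5 replicate 2 or 3, without the filter on low counts and with the replicate block (adjusted p of 0.0713 to 0.109). Of 12 Notch pathway genes 5 fell (41.7%), among them the ligand Jag1 (-0.51 ± 0.10 SE, adjusted p = 0.00525) and the target Hes1 (-0.60 ± 0.07 SE, adjusted p = 0.000407). The 2 that rose (16.7%) were near the share of all genes, the larger change being that of Heyl (1.49 ± 0.26 SE, adjusted p = 0.0032).

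Retinoic acid patterns the inflow end of the heart, through synthesis by Aldh1a enzymes and degradation by Cyp26 enzymes. Of 16 genes of synthesis, binding, degradation and response 4 rose (25%) and 6 fell (37.5%), with a median of -0.13. Over all genes the share was 18.4% in each direction. The degrading enzymes split. Cyp26b1 was at 3.04, 3.03 and 3.04 CPM at E8 and 10.9, 7.65 and 6.82 CPM at E9.5 (1.48 ± 0.17 SE, adjusted p = 0.0006). Cyp26c1 was at 1.34, 1.59 and 1.63 CPM at E8 and 0.478, 0.411 and 0.289 CPM at E9.5 (-1.95 ± 0.21 SE, adjusted p = 0.000386). Cyp26a1 was at 8.03, 8.46 and 8.21 CPM at E8 and 1.62, 1.2 and 0.971 CPM at E9.5 (-2.71 ± 0.17 SE, adjusted p = 4.43e-05). Among synthetic enzymes Aldh1a2, the main one of mesoderm, was at 1.69, 1.49 and 1.79 CPM at E8 and 2.68, 4.39 and 8.76 CPM at E9.5 (1.68 ± 0.44 SE, adjusted p = 0.0294). Aldh1a1 was at 0.0294, 0.00874 and 0.0163 CPM at E8 and 0.266, 4.12 and 7.36 CPM at E9.5 (adjusted p = 0.0196), with so few counts at E8 that no fold is given. In both, E9.5 replicate 1 was the lowest of its stage and replicate 3 the highest. The call of Aldh1a2 ended without E8 replicate 1, 2 or 3 or E9.5 replicate 2 and without the filter on low counts (adjusted p of 0.0589 to 0.1). The call of Aldh1a1 ended without E8 replicate 2 or 3 or E9.5 replicate 2 and without the filter on low counts (adjusted p of 0.0506 to 0.0958). The log2 fold change of Aldh1a2 was 1.10 without E9.5 replicate 3, against 1.68. The number called higher was 2 without E8 replicate 1, 1 without E8 replicate 2, 2 without E8 replicate 3, 2 without E9.5 replicate 2 and 2 without the filter on low counts, while 4 genes were lower in each of these leave-outs. Of 9 neuregulin and ErbB genes 3 fell (33.3%) and 1 rose (11.1%), beside that same share. The endocardial ligand Nrg1 fell, at 101, 79.8 and 82 CPM at E8 and 62, 59.4 and 55 CPM at E9.5 (-0.58 ± 0.10 SE, adjusted p = 0.00297). Its receptors Erbb2 (0.00 ± 0.06 SE, adjusted p = 0.985) and Erbb4 (0.25 ± 0.24 SE, adjusted p = 0.46) were not called. Egfr was the gene called higher (1.35 ± 0.37 SE, adjusted p = 0.0358). The call of Egfr ended without E8 replicate 1, 2 or 3 or E9.5 replicate 2 or 3, without the filter on low counts and with the replicate block (adjusted p of 0.057 to 0.126).

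T, Brachyury, the mesoderm factor of the primitive streak, was low at both stages. T (chr17:8434423-8442496, plus strand) was at 0.431, 0.306 and 0.447 CPM at E8 and 0.119, 0.08 and 0.0231 CPM at E9.5, 5.34-fold lower at E9.5 (-2.42 ± 0.45 SE, adjusted p = 0.00441), and was at 0.184 to 0.228 CPM at E14. Mesp1 (chr7:79792241-79793788, minus strand), the earliest factor of cardiac mesoderm, known from gastrulation, was near 0 at E8 and higher at E9.5. It was at 0.0686, 0.122 and 0.0325 CPM at E8 and 2.48, 1.42 and 1.7 CPM at E9.5, 24.8-fold higher (4.63 ± 0.42 SE, adjusted p = 0.000247). It was at 0.00904 to 0.037 CPM at E8.5 and listed at 0 in all E14 libraries, and its neighbour Mesp2 was not called (0.32 ± 0.46 SE, adjusted p = 0.62). Tbx6 fell by 0.91 on the log2 scale, Mixl1 and Eomes were at most 0.279 CPM, and Wnt3a, Evx1, Gsc, Cdx1 and Cdx2 were below the filter. Over the list 1 of 9 rose and 3 fell, beside 18.4% of all genes in each direction, and without E9.5 replicate 1 4 rose and 4 fell. With a minimum of 1 CPM in 3 libraries 1 fell.

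Most pluripotency and oncofetal genes tested fell. Of 14 pluripotency and oncofetal genes 10 were lower and 0 higher (median -0.40), beside 18.4% of all genes in each direction. Lin28a, an RNA-binding protein that blocks let-7 maturation, was at 226, 247 and 245 CPM at E8 and 105, 58.9 and 51.8 CPM at E9.5, 3.32-fold lower (-1.73 ± 0.28 SE, adjusted p = 0.00621), and was at 0, 0.0756 and 0 CPM at E14. Its partner Lin28b fell less (-0.51 ± 0.07 SE, adjusted p = 0.0013). Trim71, a let-7 target, was at 143, 144 and 143 CPM at E8 and 77.2, 51.2 and 48.1 CPM at E9.5 (-1.28 ± 0.18 SE, adjusted p = 0.00263). Sall4, a zinc finger factor of stem cells, was at 64.4, 68.3 and 68.9 CPM at E8 and 34.5, 24.6 and 23 CPM at E9.5 (-1.30 ± 0.15 SE, adjusted p = 0.00098). The E9.5 libraries were below all E8 libraries, and replicate 1 was the highest E9.5 library in each. Hmga2 and Mycn fell by 0.41 and 0.39. Nanog (0.64 ± 0.22 SE, adjusted p = 0.0521) was not called, and Pou5f1 and Utf1 were below the filter. The call of Hmga2 ended in the fit of all 12 libraries (adjusted p = 0.0587).

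The de novo DNA methyltransferases changed in opposite directions. Dnmt3b (chr2:153649450-153687730, plus strand) was at 40.3, 41.5 and 41.2 CPM at E8 and 24.5, 19.2 and 19.3 CPM at E9.5, 1.96-fold lower (-0.97 ± 0.09 SE, adjusted p = 0.000262). Dnmt3a (chr12:3806007-3914443, plus strand) was at 61.6, 63.9 and 62.5 CPM at E8 and 96.7, 108 and 107 CPM at E9.5, 1.66-fold higher (0.73 ± 0.06 SE, adjusted p = 0.000108). For both genes the libraries of the stages did not overlap, and at E14 Dnmt3b was at 6.26 to 7.48 CPM and Dnmt3a at 122 to 134 CPM. The maintenance enzyme Dnmt1 (0.03 ± 0.06 SE, adjusted p = 0.735) and its partner Uhrf1 (0.13 ± 0.06 SE, adjusted p = 0.11) were not called, and Dnmt3l was below the filter. Of 13 genes of DNA methylation 2 rose (15.4%) and 5 fell (38.5%), beside 18.4% of all genes in each direction. Those that fell included the demethylating enzymes Tet1 (-0.31 ± 0.08 SE, adjusted p = 0.0151) and Tet3 (-0.32 ± 0.10 SE, adjusted p = 0.0342), while Tet2 was not called. The call of Tet1 ended without E9.5 replicate 2 (adjusted p = 0.0655). The call of Tet3 ended without E8 replicate 1 or 3 or E9.5 replicate 2 or 3 and in the fit of all 12 libraries (adjusted p of 0.06 to 0.303). The number called lower was 3 without E8 replicate 3 and 3 without E9.5 replicate 2.

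Imprinted genes, expressed from 1 parental copy and mostly tied to growth, had 6 higher and 7 lower of 20. Over all genes the share was 18.4% in each direction. The growth factor Igf2 was higher, at 678, 715 and 712 CPM at E8 and 1018, 959.9 and 1025 CPM at E9.5 (0.51 ± 0.06 SE, adjusted p = 0.0007). Its clearing receptor Igf2r was lower (-0.37 ± 0.07 SE, adjusted p = 0.00411), and Dlk1, a Notch-like surface protein, was higher (0.97 ± 0.17 SE, adjusted p = 0.00558). Phlda2, a growth-restraining gene, was lower, at 6.1, 6.44 and 6.59 CPM at E8 and 2.34, 1.45 and 1.32 CPM at E9.5 (-1.91 ± 0.20 SE, adjusted p = 0.000454). The number called higher was 3 without E8 replicate 2 or 3 or E9.5 replicate 2 or 3, and the fit of all 12 libraries had 2 higher and 3 lower.

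Hox genes, which record position along the body axis, were at low levels, and 18 of 39 were below the filter. Of the 21 tested 11 were higher and 1 lower (median 1.43), beside 18.4% of all genes in each direction. However, 15 of the 21 overlap a stronger interval, and without those 3 were higher and 0 lower. Among those without such a partner, Hoxc4 was at 0.0196, 0.0262 and 0.0163 CPM at E8 and 0.332, 0.96 and 1.85 CPM at E9.5 (5.59 ± 0.78 SE, adjusted p = 0.00206). Hoxc5 was at 0.098, 0.0612 and 0.114 CPM at E8 and 0.438, 1.11 and 2.1 CPM at E9.5 (3.72 ± 0.62 SE, adjusted p = 0.00427). Hoxb4 was at 0.48, 0.516 and 0.553 CPM at E8 and 1.06, 1.33 and 1.79 CPM at E9.5 (1.43 ± 0.22 SE, adjusted p = 0.0018). These genes lie toward the 3′ side of their clusters, and the 5′ genes Hoxa13, Hoxb13, Hoxc10, Hoxc11, Hoxc12, Hoxc13, Hoxd12 and Hoxd13 were below the filter. Hoxa10 was at 0.764, 0.533 and 0.594 CPM at E8 and 1.82, 0.24 and 0.162 CPM at E9.5. Hoxa11, whose interval overlaps Hoxa11os, was at 0.265, 0.385 and 0.236 CPM at E8 and 0.982, 0.126 and 0.0809 CPM at E9.5. Both were highest in E9.5 replicate 1 and not called, and without that library both were lower at E9.5 (-1.63 and -1.49 on the log2 scale, adjusted p = 0.0029 and 0.0171). Without E9.5 replicate 1 the list had 13 higher and 4 lower, and with a minimum of 1 CPM in 3 libraries 2 and 1 (median 0.29).

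The host transcripts of the mir-99, let-7 and mir-125 families rose. Mir99ahg was at 27.8, 18.3 and 19.9 CPM at E8 and 96.2, 120.3 and 123 CPM at E9.5 (2.36 ± 0.18 SE, adjusted p = 0.000301). Mir100hg was at 1.81, 1.35 and 1.53 CPM at E8 and 6.64, 14.7 and 21.4 CPM at E9.5 (3.19 ± 0.47 SE, adjusted p = 0.00462), while Mir17hg, host of the mir-17 cluster, fell (-0.38 ± 0.06 SE, adjusted p = 0.00204). Of 13 microRNA genes and hosts tested 10 were higher and 2 lower, beside 18.4% of all genes in each direction. However, 9 of the 13 lie inside a stronger interval. The Mir302a, Mir302b, Mir302c, Mir302d and Mir367 intervals, 66 to 75 bp each within Larp7 on chromosome 3, held 140 to 147 counts in E8 replicate 1 and 250 to 253 in E9.5 replicate 2, so that 5 separate hairpins had nearly the same count in a library. Reads of these microRNAs and of the Larp7 transcript cannot be told apart, and with offsets adjusted for gene span the list had 4 higher and 2 lower. In the fit of all 12 libraries it had 5 and 0, and without overlapped genes 2 and 2. The call of Mir17hg ended in the fit of all 12 libraries (adjusted p = 0.0561).

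Of 19 named long non-coding RNAs 3 were higher (15.8%) and 7 lower (36.8%), beside 18.4% of all genes in each direction. The genes named next were found over all long non-coding RNAs by the size of the change, with at least 1 CPM in the higher stage. The largest rises were in Gm11820, at 0, 0.00874 and 0 CPM at E8 and 0.345, 3.39 and 2.89 CPM at E9.5 (adjusted p = 0.00625), where 1 count at E8 allows no fold, Wt1os, Mir99ahg, Redrum and Gm11290. Wt1os, antisense to Wt1, was at 0.568, 0.638 and 0.602 CPM at E8 and 1.23, 3.45 and 5.35 CPM at E9.5 (2.47 ± 0.52 SE, adjusted p = 0.0137). Redrum, an erythroid RNA, was at 1.9, 1.23 and 1.48 CPM at E8 and 4, 7.07 and 8.24 CPM at E9.5 (2.07 ± 0.30 SE, adjusted p = 0.00246), and Gm11290 rose less (1.25 ± 0.12 SE, adjusted p = 0.000222). Whether the counting used strand is not given, so reads of Wt1os and Wt1 cannot be told apart. The largest falls were in Platr15, Lhx1os, 9030622O22Rik, Gm26887 and C130071C03Rik. Platr15 was at 1.05, 1.16 and 1.16 CPM at E8 and 0.0266, 0.206 and 0.208 CPM at E9.5 (-2.90 ± 0.49 SE, adjusted p = 0.00357). Lhx1os was at 1.28, 1.16 and 1.14 CPM at E8 and 0.279, 0.183 and 0.0925 CPM at E9.5 (-2.70 ± 0.33 SE, adjusted p = 0.000632). 9030622O22Rik (-2.53 ± 0.25 SE, adjusted p = 0.000382) and Gm26887 (-2.20 ± 0.22 SE, adjusted p = 0.000275) fell by similar steps, and C130071C03Rik was at 13.7, 15.7 and 16.2 CPM at E8 and 3.33, 3.71 and 3.63 CPM at E9.5 (-2.09 ± 0.09 SE, adjusted p = 1.03e-05). Platr genes were named from pluripotent cells, and Platr25 and Platr30 of the list were also lower (-1.41 ± 0.07 SE, adjusted p = 2.10e-05, and -0.64 ± 0.11 SE, adjusted p = 0.00305). Bvht, Braveheart, a heart mesoderm RNA, was at 16.8, 16.8 and 16.9 CPM at E8 and 15.4, 12 and 9.85 CPM at E9.5 and not called (-0.44 ± 0.15 SE, adjusted p = 0.0545). Bvht (-0.61 ± 0.09 SE, adjusted p = 0.000998) was called without E9.5 replicate 1. Hand2os1 was higher (0.33 ± 0.10 SE, adjusted p = 0.0296). The call of Gm11820 ended without E8 replicate 2 (adjusted p = 0.0682). The call of Wt1os ended without E8 replicate 2 or 3 and without the filter on low counts (adjusted p of 0.0553 to 0.0656). The call of Hand2os1 ended without E8 replicate 2 or 3 or E9.5 replicate 2 or 3, in the fit of all 12 libraries and with the replicate block (adjusted p of 0.0708 to 0.278). The number called higher in the list was 1 and the number lower 5 without E8 replicate 2 or 3, 1 and 4 in the fit of all 12 libraries, and 2 and 4 without overlapped genes.

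Genes of the respiratory chain and of fatty acid oxidation rose together. Of 24 nuclear oxidative phosphorylation genes 23 were higher and 0 lower (median 0.54), and of 20 fatty acid oxidation genes 17 were higher and 1 lower (median 0.60), beside 18.4% of all genes in each direction. In general the embryonic heart lives largely on glucose and turns to mitochondrial respiration and fatty acids as it grows. The changes were mostly under 2-fold. Atp5b, the beta subunit of ATP synthase, was at 821, 911 and 879.7 CPM at E8 and 1159, 1378 and 1362 CPM at E9.5 (0.58 ± 0.09 SE, adjusted p = 0.00179), Sdha of complex II was higher by 0.47, Ndufs1 of complex I by 0.59 and Uqcrc1 of complex III by 0.62 on the log2 scale. Cox6a2, the muscle isoform of a complex IV subunit, rose most, at 7.33, 8.62 and 8.5 CPM at E8 and 21.3, 26.8 and 29.3 CPM at E9.5 (1.66 ± 0.13 SE, adjusted p = 0.000136), in an interval shared with Itgad, and Cox8b was not called (0.77 ± 0.33 SE, adjusted p = 0.104). Cox8b (adjusted p = 0.0268) was called without E9.5 replicate 1. Ppargc1a, the coactivator of mitochondrial genes, was at 32.8, 27.8 and 28.4 CPM at E8 and 48.4, 46 and 39.3 CPM at E9.5 (0.59 ± 0.09 SE, adjusted p = 0.00233). Of the fatty acid genes Cpt1a, an enzyme of fatty acid entry into mitochondria, was at 1.02, 0.743 and 1.27 CPM at E8 and 2.52, 4.59 and 5.19 CPM at E9.5 (2.02 ± 0.31 SE, adjusted p = 0.0029). Lipoprotein lipase, Lpl, was 2-fold higher (adjusted p = 0.000927). The thiolase subunit Hadhb was at 53.4, 52.4 and 52.9 CPM at E8 and 83.6, 108 and 112 CPM at E9.5 (0.94 ± 0.11 SE, adjusted p = 0.000588). Acsl1, an acyl-CoA synthetase, was the gene that fell (-0.48 ± 0.07 SE, adjusted p = 0.00149). With each library left out 23 to 24 of the respiratory genes and 15 to 17 of the fatty acid genes were called higher. The call of Ppargc1a ended in the fit of all 12 libraries (adjusted p = 0.0833).

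Glycolytic genes changed in both directions, with 6 of 22 higher and 9 lower (median -0.06), beside 18.4% of all genes in each direction. Isoforms of the same step went in opposite directions. The glucose transporter Slc2a3 was at 350.4, 374 and 366 CPM at E8 and 152, 124 and 124 CPM at E9.5, 2.72-fold lower (-1.44 ± 0.09 SE, adjusted p = 4.43e-05), and Slc2a1 was not called (0.12 ± 0.06 SE, adjusted p = 0.142). Slc2a4, the insulin-responsive transporter of muscle, was higher (0.81 ± 0.18 SE, adjusted p = 0.00986). Hexokinase Hk2 was at 159, 175 and 174 CPM at E8 and 127, 119.7 and 99.7 CPM at E9.5 (-0.55 ± 0.09 SE, adjusted p = 0.00264). Hk1 was at 90.3, 100.3 and 98.8 CPM at E8 and 169, 193 and 196 CPM at E9.5 (0.95 ± 0.07 SE, adjusted p = 0.000108). Ldhb, the lactate dehydrogenase subunit of oxidative tissue, was at 17.5, 19.5 and 19.1 CPM at E8 and 42.7, 59.7 and 65.1 CPM at E9.5 (1.58 ± 0.15 SE, adjusted p = 0.000533). Ldha was not called (-0.09 ± 0.07 SE, adjusted p = 0.34). The lactate exporter Slc16a3 fell (-0.50 ± 0.08 SE, adjusted p = 0.00199). The fit of all 12 libraries had 5 higher and 4 lower.

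**Figure D5:**
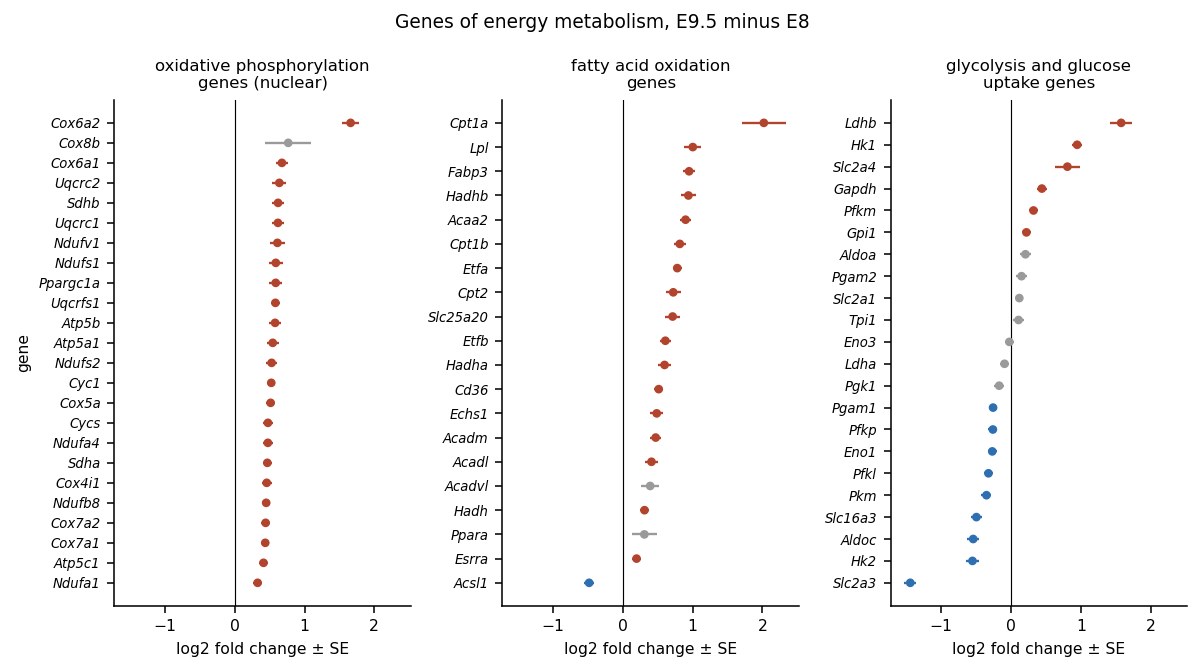
Log2 fold change (horizontal axes, E9.5 minus E8, with bars of 1 SE) of each tested gene (vertical axes) in 3 lists of energy metabolism, red for called higher, blue for called lower and grey for not called. The respiratory and fatty acid genes lie right of 0 except Acsl1, and the glycolytic genes lie on both sides.

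Cell cycle genes changed by small steps. Of 25 tested 10 were higher and 1 lower (median 0.14), beside 18.4% of all genes in each direction. Ccnd2, cyclin D2, was at 141, 129 and 130.4 CPM at E8 and 258, 264 and 255 CPM at E9.5 (0.95 ± 0.06 SE, adjusted p = 3.64e-05), and its relative Ccnd3 was higher by 0.43. The inhibitor Cdkn1a was higher, at 1.13, 1.22 and 1.17 CPM at E8 and 1.74, 2.57 and 2.52 CPM at E9.5 (0.96 ± 0.17 SE, adjusted p = 0.00368). The inhibitor Cdkn1c was lower, at 571, 617 and 599 CPM at E8 and 424, 437 and 449 CPM at E9.5 (-0.45 ± 0.06 SE, adjusted p = 0.00106). Mki67 (0.07 ± 0.11 SE, adjusted p = 0.653), Top2a (0.07 ± 0.07 SE, adjusted p = 0.454) and Aurkb (-0.02 ± 0.05 SE, adjusted p = 0.838) were not called. Mki67 (0.20 ± 0.05 SE, adjusted p = 0.0141) and Top2a (0.15 ± 0.05 SE, adjusted p = 0.0462) were called without E9.5 replicate 1. The count called higher was 4 without E8 replicate 1, 4 without E8 replicate 2, 6 without E8 replicate 3, 4 without E9.5 replicate 2, 4 without E9.5 replicate 3 and 4 in the fit of all 12 libraries.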

How the data were processed

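The deposited table holds read counts per gene interval for 12 libraries of total RNA, which the authors had made before deposit. The submitters' processing notes name STAR 2.5.0 and Cufflinks 2.2.1 and the builds hg38, mm10 and GRCm38 without saying what each was used for. What counted the reads, whether strand was used and which annotation applied are not given in the sources used, so antisense and overlapping genes cannot be separated.

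Of 48709 table lines 3 duplicates were dropped. Gene coordinates are those of the table, and 42776 of its 48706 intervals were identical to GENCODE M21 genes and 5644 matched by symbol and overlap. The 6 libraries of E8 and E9.5 were fitted with edgeR 4.0.16 (R 4.3.3): filterByExpr, TMM factors, robust quasi-likelihood fit, no covariate, Benjamini-Hochberg adjustment over 26825 genes, threshold 0.05. CPM used the effective library sizes. A gene was treated as overlapped, and its value as uncertain, where an overlapping interval held at least 0.5 times its counts. Alternatives used DESeq2 1.42.0 and the settings given in the closing section. In a simulated version of the comparison, with 26405 genes, 100 genes were changed by 1 and 100 by 2 on the log2 scale. Of these 88% and 98% were called, as were 22 unchanged genes (10.6% of calls). All changed genes had a mean of at least 1 CPM, and far fewer were changed than the 9877 called in the data. These shares therefore need not hold for the data, nor for genes below 1 CPM.

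Genes were named by rule: the 10 largest changes each way at 10 CPM or more with stages apart and no overlap, leaving out genes without an established symbol, ribosomal protein and histone genes, pseudogenes and small RNAs; list members by size of change with defining markers; a panel of 15 genes; and the 5 largest long non-coding RNA changes each way at 1 CPM or more. The comparison and the 38 lists (639 genes, 577 tested, 62 below the filter) were chosen with earlier results of these data known. Some list members are counted but not reported here by name. Counting error is small at this depth for all but the lowest genes, and folds are not given against a stage with 6 counts or fewer.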

Additional observations from a re-analysis of the deposited data

Results flagged for a closer look

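A signal lay in libraries outside the comparison. The summed level of the visceral endoderm and liver genes was 1843 CPM, scaled over all 12 libraries, in E8.5 replicate 3, against at most 152 CPM in the E8 and E9.5 libraries, 12.1 times that level. That library entered no test given here except the fit of all 12 libraries.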

How the results depend on the processing

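The counts of 4949 higher and 4928 lower genes moved by less than 1.5 times with RLE factors, upper-quartile factors, DESeq2, offsets adjusted for gene span, either other filter, and without globin or small structural RNA genes. A test against a 2-fold change (glmTreat) called 393 higher and 431 lower. The fit of all 12 libraries called 3913 and 3250, and without overlapped genes, with fewer genes tested, the counts were 3350 and 3178. With each library left out in turn 3579 to 6161 genes were higher and 3184 to 5658 lower, the most without E9.5 replicate 1, and the cause was not tested.

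Without E9.5 replicate 1 the log2 fold changes of 3 genes reversed, all without a call in the 6 libraries: Tfap2c to -0.77 (edgeR adjusted p = 0.0278), Hoxa10 to -1.63 (adjusted p = 0.0029) and Hoxa11 to -1.49 (adjusted p = 0.0171). Without any 1 of the other libraries they were positive, up to 0.51, 0.69 and 0.89 without E9.5 replicate 3. No other named gene or list member that was called before or after changed sign under any setting. Of those with a value, 5 lost and 60 gained a call without that library, 80 lost and 1 gained one without E8 replicate 3, and 5 lost and 19 gained one with DESeq2.

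Same-numbered replicates were correlated at 0.066, 0.0065 and 0.0089 in their deviations from the stage means and other pairs at -0.04 to 0.032. Of the same-numbered pairs only that of replicate 1 was the closest match of its members. Deviations from a mean of 3 libraries depend on each other, so these values cannot show whether same-numbered samples share a litter or batch. With the replicate block 4797 genes were higher and 4917 lower, and 8984 of the 9877 calls made without it were kept. Depth limits the genes near the filter, where a few reads set the fold.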

Other observations

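Immediate early genes, which cells induce within minutes of a stimulus, were chosen as a group after Fosb was seen among the largest falls. Of 14 tested 0 were higher and 13 lower at E9.5, against 18.4% of all genes in each direction, with a median log2 fold change of -0.71. Fosb itself is counted among the 13. The 14 also include the heat shock genes Hspa1a and Hspa1b, of which Hspa1b was not called. An overlapping interval of similar or higher count touches 3 of them. Fos was at 40.3, 45.5 and 45.5 CPM at E8 and 15.2, 9.25 and 9.54 CPM at E9.5 (log2 fold change -1.95 ± 0.20 SE, edgeR adjusted p = 0.000857). Egr1 was at 9.84, 10.7 and 11.2 CPM at E8 and 3.92, 2.58 and 3.4 CPM at E9.5 (log2 fold change -1.68 ± 0.14 SE, edgeR adjusted p = 0.000166). E9.5 replicate 1 was the highest E9.5 library in Fos and Fosb.

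Translation and histone genes were grouped after the data were seen. Beside 18.4% of all genes in each direction, of the 77 mitochondrial ribosomal protein genes tested 50 were higher and 2 lower (64.9% and 2.6%), and of the 81 cytoplasmic ribosomal protein genes tested 34 were higher and 2 lower (42% and 2.47%). Of the 66 replication-dependent histone genes tested 24 were higher and 8 lower (36.4% and 12.1%). An overlapping interval with at least 0.5 times their counts touches 26 of the mitochondrial ribosomal, 10 of the cytoplasmic ribosomal and 20 of the histone genes. The values of these overlapped genes are uncertain.

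Processed pseudogenes, copies of mature messages that share reads with their parents, had fewer rises than falls. Of the 2557 tested 313 were higher and 916 lower (12.2% and 35.8%). These shares, and those of the small RNAs below, stand beside 18.4% of all genes in each direction. Without a stronger overlapping gene, of 1343 tested 127 were higher and 611 lower (9.46% and 45.5%). Small RNA intervals mostly lie inside other genes. Of the 514 snoRNA genes tested 228 were higher and 15 lower (44.4% and 2.92%), but 477 of these were overlapped. Of the 558 microRNA genes tested 155 were higher and 16 lower (27.8% and 2.87%). Of the 31 without such overlap tested 0 were higher and 7 lower (0% and 22.6%), the falls being near the share of all genes.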
